A study of Homo sapiens with 4 samples.

Results

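The 9 genes of deoxynucleotide supply, RRM1, RRM2, RRM2B, TYMS, TK1, DUT, DCK, CAD and DHODH, were followed by RNA sequencing in human prostate cancer cell lines treated with OICR-9429. They were taken by gene symbol, and all 9 were found among the 27658 Ensembl gene identifiers listed. OICR-9429 is a compound known to bind WDR5, an adaptor protein of histone methyltransferase complexes. DU145 cells received DMSO or the compound at 120 µM, and PC-3 cells DMSO or the compound at 150 µM, each for 48 h, which makes 4 groups. DMSO is the solvent of the compound. Each group had 1 library, so no difference within a line has a replicate check. Dose and culture medium (DMEM for DU145, RPMI1640 for PC-3) both differ with the line and cannot be told apart from it.

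Ribonucleotide reductase turns ribonucleotides into deoxyribonucleotides and limits the supply of DNA precursors. It pairs the large subunit RRM1 with a small subunit, either RRM2, which is made for S phase, or RRM2B (p53R2), which serves DNA repair and mitochondrial DNA outside S phase and is a target of p53. Thymidylate comes from TYMS, which methylates dUMP, or from salvage by TK1. DUT removes dUTP and yields dUMP. DCK phosphorylates deoxycytidine, and CAD and DHODH build pyrimidines from scratch. PC-3 lacks p53 and DU145 carries mutant p53, as is known for these lines.

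Levels are given in CPM, the count of reads of a gene scaled to the reads of its library, and a pair of levels gives DMSO against OICR-9429. Libraries held between about 55181000 and 58623000 reads. Every ratio of CPM (OICR-9429 over DMSO) carries an exact 95% interval, which reflects the counting of fragments and no other error, and compares 2 libraries, not 2 conditions. A gene was counted as higher or lower within a line when log2(CPM + 1) changed by 2-fold or more and 1 CPM or more was reached in either library. This rule looks at size and tests nothing. Across all genes with at least 1 CPM, the median log2 change was −0.18 in DU145 and −0.01 in PC-3, and TMM scaling would add 0.18 to every DU145 log2 ratio. CTNNA1, which is deleted in PC-3, stood at 499 CPM in DU145 against 2.73 CPM in PC-3 with DMSO. The epithelial keratin KRT8 stood between 219 and 562 CPM. Of the 5 epithelial markers, KRT19 was higher in DU145 (251 against 516 CPM) and CDH1 lower (ratio 0.402, 0.367 to 0.440), and 0 were past 2-fold in PC-3. Of the luminal prostate markers, KLK3 and KLK2 were not listed. Fibroblast markers summed to 11.1 against 3.97 CPM in DU145 and to 69.8 against 17.4 CPM in PC-3 (DMSO, then OICR-9429), nearly all of it COL1A1, while DCN was not listed. Endothelial markers summed to 3.04 against 2.60 CPM and to 27.7 against 37.4 CPM, mostly PECAM1 in PC-3, and leukocyte markers to at most 3.62 CPM. Their part in the results was not tested.

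With OICR-9429 the S-phase genes of the set stood lower in both lines, further in PC-3, while RRM2B did not. By the rule of size 2 of the 9 genes were lower in DU145 (RRM2 and TK1), where 8.01% of all genes with at least 1 CPM were. In PC-3 5 of 9 were lower (RRM1, RRM2, TYMS, TK1 and DUT), against 8.68% of all genes. None of the 9 was higher by 2-fold in either line, where 0.999% of genes were in DU145 and 7.15% in PC-3. The median log2 change of the 9 genes was −0.91 in DU145 and −1.92 in PC-3. In a bulk library, fewer cycling cells and less RNA per cell cannot be told apart.

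**Figure D1:**
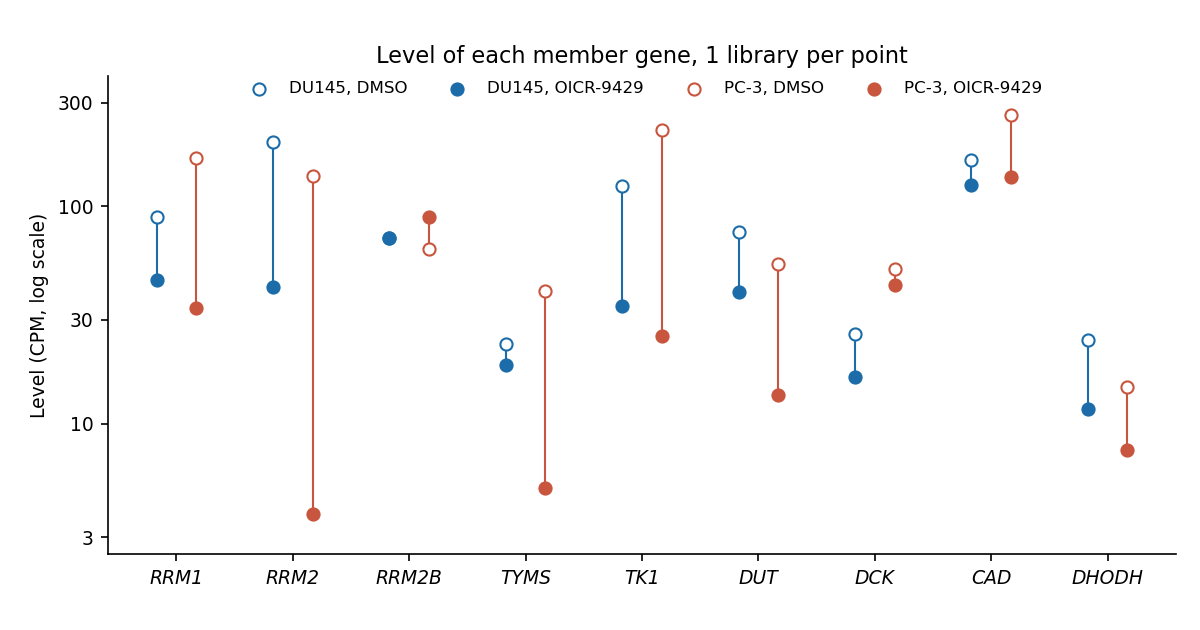
Level of each of the 9 genes in CPM (log axis) in the 4 libraries. Open circles are DMSO and filled circles OICR-9429, joined by a line within each cell line, with 1 library per point and no error bar. RRM2 spans 138 to 3.85 CPM in PC-3, while RRM2B stays between 64.0 and 89.0 CPM in all libraries.

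Letters before the transcription start are shown for the 5 genes that were lower by 2-fold in PC-3. They come from RefSeq (GRCh38.p14) and read 5′ to 3′ on the strand of the gene. Capitals mark CCAAT boxes (CCAAT or its reverse ATTGG, the binding letters of NF-Y) and E2F-type letters (TTTNNCGC on either strand). CHR letters (TTTGAA or TTCGAA on either strand) were searched too. Where RefSeq gives several starts (RRM2, TK1 and DUT), the start with the most matches was used. RRM1 is shown over the 150 bases before its start, chr11:4094535-4094684 on the plus strand, where GENCODE 29 has no exon. RRM2 is shown over chr2:10122619-10122729 on the plus strand, 120 to 10 bases before its start, which a longer RRM2 transcript reads as coding sequence. Only 30 bases around a match are shown for the others, whose matches lie in annotated 5′ untranslated exon of other transcripts: chr17:78187081-78187110 (minus strand) for TK1, chr18:657603-657632 (plus) for TYMS and chr15:48332152-48332181 (plus) for DUT.
RRM2: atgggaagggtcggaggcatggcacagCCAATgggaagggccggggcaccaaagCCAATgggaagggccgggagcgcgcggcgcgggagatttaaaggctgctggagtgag
RRM1: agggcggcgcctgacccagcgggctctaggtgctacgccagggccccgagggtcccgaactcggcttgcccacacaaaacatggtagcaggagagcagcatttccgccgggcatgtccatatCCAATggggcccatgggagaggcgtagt
TK1: ggccggctcgtgATTGGccagcacgccgtg
TYMS: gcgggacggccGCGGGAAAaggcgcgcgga
DUT: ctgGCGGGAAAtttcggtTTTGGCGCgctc

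RRM2 held 3 CCAAT boxes, beginning 123, 93 and 66 bases before the start, and TK1 held 2 in the reverse direction, 77 and 46 bases before it. RRM1 held 1 CCAAT box 28 bases before the start. TYMS held an E2F-type match 39 bases before the start, and DUT held 2, 42 and 27 bases before it, with CHR matches at 214 and 129. RRM1 held a CHR match at 199. The letters shown above leave out the RRM2 box at 123, the TK1 box at 77 and all of these CHR matches. Of the 9 genes 8 had an entry in the promoter table, and RRM2B had none. Over the 250 bases before any listed start, 5 of 8 held a CCAAT box (37.0% of 27305 genes did), 2 of 8 E2F-type letters (7.15%) and 2 of 8 CHR letters (17.2%). The CCAAT genes were RRM1, RRM2, TK1, CAD and DHODH, of which CAD and DHODH were short of the 2-fold rule in both lines. TYMS and DUT, which were lower in PC-3, held no CCAAT box in these windows. These letters describe the windows and show no binding.

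Of the reductase subunits, RRM2 had the widest difference. RRM2 (ENSG00000171848, chromosome 2) went from 199 CPM in the DMSO library to 42.3 CPM in the treated one in DU145. The PC-3 libraries held 138 against 3.85 CPM. The treated libraries were thus the low ones in both lines, and the PC-3 one was lowest. The ratio was 0.213 (0.200 to 0.227) in DU145, a level 4.70-fold lower, and 0.0280 (0.0229 to 0.0339) in PC-3, a level 35.7-fold lower. By log2 change RRM2 was 76th from the lowest of 16120 genes in DU145 and 2nd from the lowest of 14623 in PC-3. RRM1 (ENSG00000167325, chromosome 11), the large subunit, stood at 89.2 against 45.6 CPM in DU145 and at 167 against 34.1 CPM in PC-3. Its ratio was 0.511 (0.477 to 0.547) in DU145, short of the 2-fold rule, and 0.204 (0.190 to 0.219) in PC-3.

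RRM2B (ENSG00000048392, chromosome 8) did not share this direction. It stood at 71.3 against 71.7 CPM in DU145, which gives a ratio of 1.01 (0.945 to 1.07). The PC-3 libraries stood at 64.0 against 89.0 CPM, a ratio of 1.39 (1.31 to 1.48). The interval in DU145 includes 1 on the deposited scale, while TMM scaling gave a log2 change of 0.18 there. The ratio of RRM2 to RRM2B, in which the scaling of a library cancels, went from 2.79 to 0.590 in DU145 and from 2.15 to 0.0432 in PC-3. It was 4.72-fold lower with OICR-9429 in DU145 (ratio of ratios 0.212, 0.194 to 0.231) and 49.8-fold lower in PC-3 (0.0201, 0.0164 to 0.0246).

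Per kilobase of annotated exon, the small subunits changed places. RRM2 made up 74.4% of the summed RRM2 and RRM2B level in DU145 with DMSO and 38.1% with OICR-9429. In PC-3 it made up 69.2% and 4.31%. The summed level of both small subunits per kilobase went from 50.2 to 20.9 in DU145 and from 37.4 to 16.8 in PC-3, and that of RRM1 from 21.4 to 10.9 and from 39.9 to 8.16. These levels divide CPM by the length of all exons of the gene in GENCODE 29, and the isoforms present were not measured. The exons of AC007240.1, on the same strand, cover 20.2% of the exon bases of RRM2. How shared reads were counted is not stated in the labels or headers, so the RRM2 level per kilobase is uncertain. AC007240.1 stood at 0.478 against 0 CPM in PC-3 and was not listed in DU145.

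**Figure D2:**
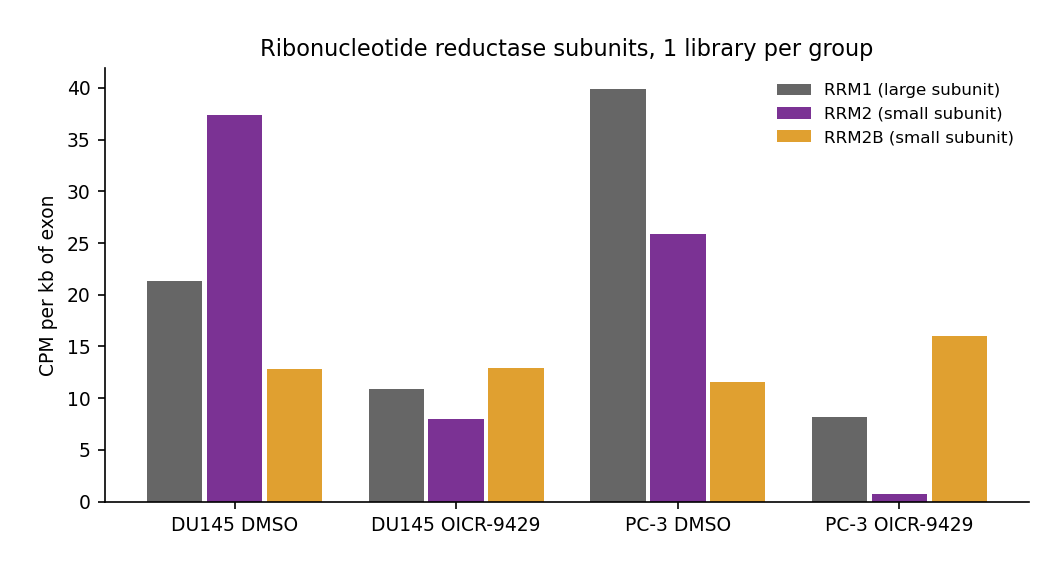
Level of the ribonucleotide reductase subunits in CPM per kilobase of exon in the 4 libraries, 1 bar per gene and library, with no error bar. RRM2 is the taller small subunit in both DMSO libraries and RRM2B in both treated ones (16.0 against 0.723 in PC-3).

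Of the thymidylate enzymes, TK1 was lower in both lines and TYMS mainly in PC-3. TK1 (ENSG00000167900, chromosome 17), cytosolic thymidine kinase, stood at 124 against 34.9 CPM in DU145 and at 225 against 25.3 CPM in PC-3. Its ratios were 0.281 (0.262 to 0.302) and 0.112 (0.104 to 0.121). TYMS (ENSG00000176890, chromosome 18), thymidylate synthase, stood at 23.4 against 18.6 CPM in DU145 and at 40.8 against 5.07 CPM in PC-3. Its ratio was 0.794 (0.706 to 0.892) in DU145 and 0.124 (0.104 to 0.148) in PC-3. The exons of ENOSF1, on the opposite strand, cover 39.1% of the exon bases of TYMS. How the counting treated strand and shared reads is not stated in the labels or headers, so the TYMS level is uncertain. ENOSF1 stood at 67.7 against 75.5 CPM in DU145 and at 57.4 against 34.1 CPM in PC-3.

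DUT (ENSG00000128951, chromosome 15), the dUTPase, stood at 76.6 against 40.4 CPM in DU145, which gives a ratio of 0.527 (0.490 to 0.567). The PC-3 libraries stood at 54.0 against 13.5 CPM, a ratio of 0.250 (0.223 to 0.280). It was short of the rule in DU145 and past it in PC-3. Its listed pseudogenes were each at or under 0.544 CPM.

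The salvage kinase DCK and the de novo enzymes CAD and DHODH were short of the 2-fold rule in both lines. DCK (ENSG00000156136, chromosome 4) stood at 26.0 against 16.3 CPM in DU145, a ratio of 0.629 (0.558 to 0.707), and at 51.4 against 43.4 CPM in PC-3, a ratio of 0.844 (0.782 to 0.911). CAD (ENSG00000084774, chromosome 2), the enzyme of the first steps of pyrimidine synthesis, stood at 163 against 125 CPM in DU145 (0.767, 0.734 to 0.802). In PC-3 CAD stood at 263 against 136 CPM (0.519, 0.499 to 0.539). DHODH (ENSG00000102967, chromosome 16), the mitochondrial dehydrogenase of the pathway, stood at 24.1 against 11.6 CPM in DU145 (0.482, 0.421 to 0.551) and at 14.8 against 7.55 CPM in PC-3 (0.510, 0.431 to 0.603). DHODH lay just short of the rule in DU145, at −0.99 on the log2(CPM + 1) scale. The pair of treated libraries stood below their DMSO libraries for all 3 genes.

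**Figure D3:**
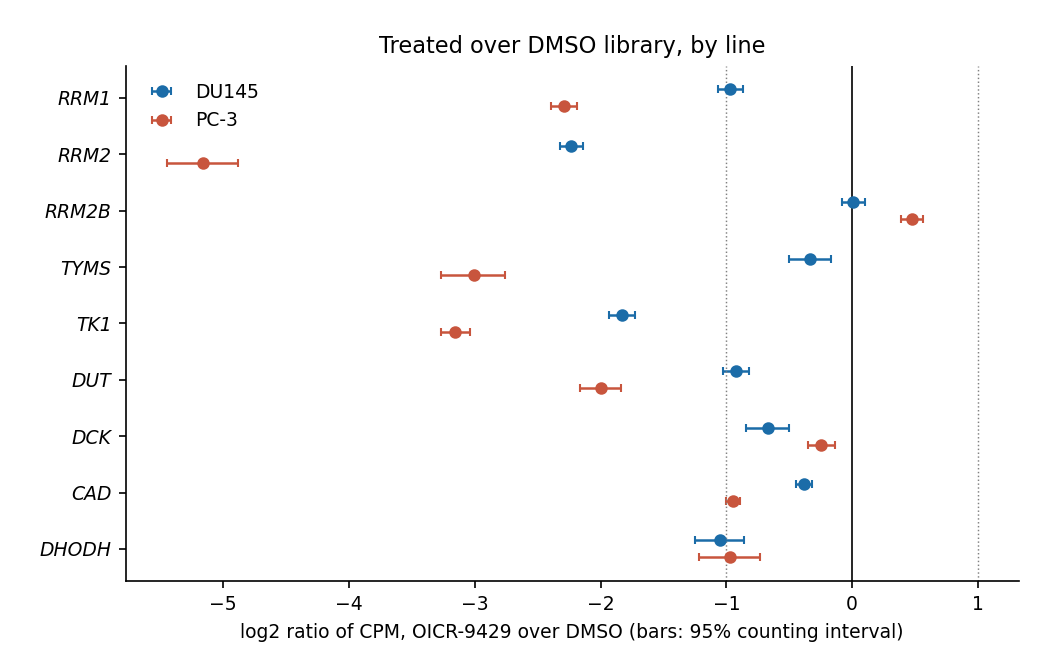
Log2 ratio of CPM, OICR-9429 over DMSO, for the 9 genes in DU145 and PC-3. Points are single-library ratios, bars are exact 95% counting intervals, and dotted lines mark 2-fold. RRM1, RRM2, TYMS, TK1, DUT and CAD lie further left in PC-3, RRM2B lies to the right of 0 there, and the DHODH intervals of the lines overlap.

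The ratio in PC-3 was set over that in DU145 for each gene, with an interval from counting alone (normal approximation on the log scale), since 1 library per group allows no test of this difference. It was 0.131 (0.107 to 0.161) for RRM2 and 0.156 (0.127 to 0.193) for TYMS. It was 0.400 for both RRM1 (0.363 to 0.441) and TK1 (0.360 to 0.444), 0.475 (0.415 to 0.542) for DUT and 0.676 (0.638 to 0.717) for CAD. It was above 1 for RRM2B, at 1.38 (1.27 to 1.51), and for DCK, at 1.34 (1.17 to 1.54). For DHODH the interval included 1. With DMSO alone, RRM1, TYMS, TK1, DCK and CAD stood between 1.61 and 1.98 times higher in PC-3 than in DU145, and DHODH, RRM2, DUT and RRM2B at 0.613, 0.692, 0.706 and 0.898 times the DU145 level.

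In order of level per kilobase, TK1 led in DU145 with both treatments (66.7 and 18.8) and in PC-3 with DMSO (121), and RRM2 went from second (37.3) to 6th (7.95) in DU145 and from 4th (25.8) to last (0.723) in PC-3. CAD led in treated PC-3 at 16.2, beside RRM2B at 16.0. With 1 library a group, the order of neighbours has no replicate check.

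With the lines as the only repeats of the treatment, limma with trend was fitted to 14976 genes with line and treatment as terms. Of the 9 genes 3 passed, all lower, where 1.14% of the genes tested fell and 0.12% rose (1.05% fell with edgeR and 1.62% with DESeq2). On the log2 scale RRM2 fell by 3.52 ± 0.47 (standard error; limma, Benjamini-Hochberg adjusted p = 0.00136) and TK1 fell by 2.45 ± 0.35 (adjusted p = 0.00176). RRM1 fell by 1.61 ± 0.35 (limma, adjusted p = 0.0369), a call that was lost with edgeR (adjusted p = 0.0644) and under TMM scaling (0.163). DUT (−1.41 ± 0.35, limma, adjusted p = 0.0798) and TYMS (−1.55 ± 0.51, adjusted p = 0.243) did not pass, nor did DHODH (0.505), CAD (0.589), DCK (0.831) or RRM2B (0.939). The fit has 1 residual degree of freedom, so its errors rest mostly on the trend over all genes. Without the line term none of the 9 passed with limma (3 at an unadjusted p under 0.05).

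The S-phase marker genes moved with these results. Of 27 such genes, 6 were lower in DU145 and 25 in PC-3 by the rule of size, where 8.01% and 8.68% of all genes were. The list held mostly origin, fork and polymerase factors, and also CCNE2, SLBP, CHAF1B and UNG. Its medians were −0.68 and −2.21 (−0.18 and −0.01 over all genes). Under TMM scaling the DU145 count was 4 and the DU145 median −0.50. The 27 genes summed to 2085 against 1390 CPM in DU145 and to 2432 against 555 CPM in PC-3. CDC45, a helicase component, stood at 42.4 against 10.3 CPM in DU145 and at 39.0 against 4.39 CPM in PC-3, and MCM10 at 38.5 against 15.6 CPM and at 34.3 against 1.19 CPM. GINS1 stood at 20.3 against 7.49 CPM and at 41.5 against 4.35 CPM, and the checkpoint adaptor CLSPN at 44.9 against 3.45 CPM in PC-3, with a ratio of 0.591 (0.518 to 0.673) in DU145. RRM2 was lower than all 27 of them in both lines by log2 change. TK1 was lower than all but 1 in DU145 and all but 2 in PC-3. RRM1 had 7 of the 27 below it in DU145 and 13 in PC-3, near the middle. TYMS had 24 below it in DU145 and 6 in PC-3. In PC-3, DCK had 27 of the 27 below it, DHODH 26 and CAD 25. In DU145, DCK had 14 below it, DHODH 6 and CAD 20, and DUT had 7 in DU145 and 18 in PC-3. All 27 were below RRM2B in both lines. The part of a smaller S-phase share in these values was not tested.

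The genes most like RRM2 were sought by the distance between pairs of log2 changes (DU145 and PC-3), among 10701 genes that reached 5 CPM in either library of both lines. The 5 nearest were E2F2 (distance 0.67), MKI67 (0.84), DTL (1.04), MYBL2 (1.11) and E2F8 (1.17). E2F2 had log2 changes of −2.03 and −4.19, and MKI67 of −2.27 and −3.99, each short of the RRM2 change in PC-3 (−4.84). For RRM2B the 5 nearest lay within 0.02 (ENOX2, RBM23, SIK3, IFNLR1 and FYCO1). The likeness rests on 4 libraries.

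Outside the 9 genes, 62 further genes of nucleotide metabolism were followed in 7 lists. Of these, 56 had at least 1 CPM in each line, with medians of −0.16 in DU145 and −0.50 in PC-3. By the rule of size 4 were lower and 0 higher in DU145, and 15 lower and 4 higher in PC-3. Set against the shares of all genes given above, the 4 lower in DU145 and the 4 that were higher in PC-3 are near the background. The same shares apply to each list below, 8.01% lower and 0.999% higher in DU145, and 8.68% and 7.15% in PC-3. A single gene past 2-fold in such a short list says little about the list. Across both lines 1 of 56 tested fell and 0 rose with limma (13 at an unadjusted p under 0.05). CMPK2, described below, rose with edgeR (adjusted p = 0.0297), DESeq2 (adjusted p = 3.15e-05) and limma-voom (adjusted p = 0.00144). It did not pass with limma (adjusted p = 0.126), nor under TMM scaling (0.277).

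Among the other thymidylate and folate cycle genes, 1 of 8 was lower in DU145 and 5 of 8 in PC-3, with medians of −0.30 and −1.29. DTYMK, thymidylate kinase, stood at 57.0 against 30.5 CPM in DU145 and at 89.5 against 29.5 CPM in PC-3. SHMT1, the cytosolic serine hydroxymethyltransferase, stood at 63.4 against 54.7 CPM and at 33.8 against 10.3 CPM. DCTPP1, which hydrolyses dCTP, stood at 20.5 against 14.2 CPM and at 16.8 against 6.04 CPM. SHMT2, the mitochondrial counterpart of SHMT1, was the 1 higher member in PC-3, at 188 against 378 CPM, and stood at 333 against 299 CPM in DU145, where its ratio of 0.898 became 1.02 under TMM scaling.

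Of the 10 other pyrimidine genes, 0 were past 2-fold in DU145, and in PC-3 3 were lower (UMPS, CTPS1 and NME1) and 1 higher. NME1 shares its locus with a read-through gene and is uncertain. UMPS, the enzyme after DHODH, stood at 35.9 against 35.4 CPM in DU145 and at 33.6 against 12.6 CPM in PC-3. CTPS1, a CTP synthase, stood at 67.8 against 83.2 CPM and at 128 against 41.3 CPM. UCK2, a uridine-cytidine kinase, stood at 101 against 89.2 CPM and at 59.8 against 33.5 CPM, and CTPS2 at 19.6 against 14.5 CPM and at 31.2 against 24.6 CPM. The higher gene was CMPK2, a mitochondrial kinase known as interferon-induced, at 3.86 against 84.4 CPM in PC-3, a ratio of 21.9 (18.1 to 26.7). In DU145 CMPK2 stood at 0.362 against 1.02 CPM. CMPK2 was chosen after its values were seen.

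Of 4 pyrimidine breakdown genes with at least 1 CPM, 2 were higher in PC-3 (median 1.02) and 1 was lower in DU145 (median −0.30). Over all genes 7.15% were higher in PC-3 and 8.01% lower in DU145. UPP1, uridine phosphorylase, stood at 309 against 462 CPM in DU145 and at 73.6 against 251 CPM in PC-3. TYMP, thymidine phosphorylase, stood at 34.6 against 16.5 CPM in DU145 and at 12.7 against 50.6 CPM in PC-3. CDA, cytidine deaminase, stood at 81.7 against 76.6 CPM and at 63.9 against 33.5 CPM. Of the 9 genes of dNTP hydrolysis, 1 was lower in each line (NUDT1 in DU145) and 0 higher. That is near the shares of all genes that were lower (8.01% in DU145 and 8.68% in PC-3). SAMHD1, the dNTP hydrolase, stood at 47.4 against 51.9 CPM in DU145 and at 69.8 against 133 CPM in PC-3. NUDT1, which clears oxidised purine nucleotides, stood at 15.1 against 6.26 CPM and at 13.8 against 6.69 CPM. The nucleotidase NT5C2 stood at 63.4 against 78.1 CPM and at 61.4 against 82.5 CPM.

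Of 13 purine synthesis genes 0 were past 2-fold in DU145 and 4 were lower in PC-3 (medians −0.08 and −0.81). PAICS stood at 184 against 179 CPM in DU145 and at 540 against 162 CPM in PC-3. PFAS stood at 79.0 against 59.2 CPM and at 75.6 against 21.2 CPM, and PRPS1 at 63.0 against 66.2 CPM and at 100.2 against 38.5 CPM. PPAT, the first committed enzyme, stood at 43.2 against 33.9 CPM and at 59.9 against 30.7 CPM. Of 8 purine salvage genes 1 was lower in each line, near the shares of all genes (8.01% in DU145 and 8.68% in PC-3). These were ADA (15.4 against 7.14 CPM in DU145) and HPRT1 (67.1 against 18.4 CPM in PC-3). Of 4 nucleoside transporters with at least 1 CPM, 1 was lower in PC-3. It was SLC29A1, the carrier of nucleosides and nucleoside drugs, at 93.9 against 39.3 CPM, and at 81.8 against 54.6 CPM in DU145. The mitochondrial carrier SLC25A36 stood at 262 against 266 CPM in DU145 and at 67.1 against 120 CPM in PC-3. SLC29A2 stood at 27.8 against 46.3 CPM and at 14.7 against 14.2 CPM, and SLC25A33 at 13.6 against 18.8 CPM in PC-3.

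Since RRM2B is a known p53 target, 21 other p53 targets were set beside it. In DU145 1 was higher and 0 lower (median 0.13), where 0.999% and 8.01% of all genes were. In PC-3 5 were higher and 2 lower (median 0.37), where 7.15% and 8.68% of all genes were. The 2 that were lower in PC-3 are near the background and are not among the genes named here. CDKN1A, which encodes p21, stood at 91.3 against 268 CPM in DU145 and at 36.1 against 188 CPM in PC-3, and passed across both lines (1.95 ± 0.32, limma, adjusted p = 0.00518). TP53INP1 stood at 25.7 against 51.8 CPM and at 11.4 against 68.1 CPM and passed with limma (1.74 ± 0.39, adjusted p = 0.0475) but not with edgeR (0.0676). SESN2 stood at 57.4 against 77.1 CPM in DU145 and at 20.9 against 115 CPM in PC-3, and BBC3 at 8.88 against 8.54 CPM and at 1.50 against 12.4 CPM. MDM2, a direct target, stood at 50.9 against 77.1 CPM in DU145 and at 34.9 against 36.9 CPM in PC-3. MDM2 was named after its values were seen.

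**Figure D4:**
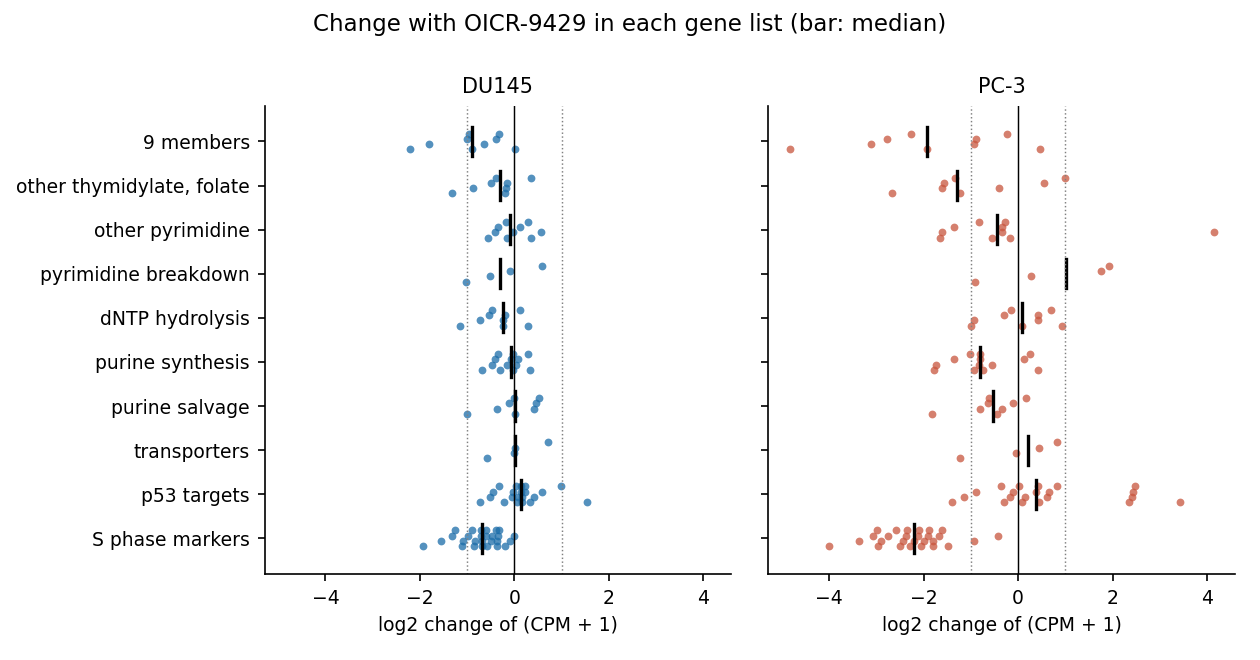
Change of log2(CPM + 1), OICR-9429 minus DMSO, for each gene with at least 1 CPM in 10 gene lists, in DU145 (left) and PC-3 (right). Each point is a gene, black bars are list medians and dotted lines mark 2-fold. In PC-3 the S-phase markers (median −2.21) and the 9 genes (median −1.92) lie furthest left, with RRM2 at −4.84.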

How the data were processed

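The authors deposited 1 table per library, with Ensembl gene identifiers and a normalized value. The deposited values share 1 total across libraries and were read as CPM, per the file headers ("normalize") and the values themselves. Listed in the submitters' processing notes, without their roles, are hg19 as the build and the tools HISAT2 2.1.0, HTSeq 0.6.1 and bcl2fastq 2.19.1. Which annotation was used is not given in the sources used. Each value was a whole multiple of 1 step (100% within 0.01 step), so reads were recovered. All recovered counts were even except values of 1 step, which were taken as 0, and fragments (about 27591000 to 29312000 per library) gave the counting errors. At this depth 3 fragments correspond to 0.102 to 0.109 CPM. PCR copies cannot be told from molecules. Genes not listed have no value.

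Gene symbols, exon lengths and overlaps came from current names and GENCODE 29, on another build than hg19, so gene coordinates of the files are not given. Promoters are from RefSeq (GRCh38.p14). A change within a line is the treated minus the DMSO value of log2(CPM + 1). The test over both lines used limma 3.58.1 (trend, line and treatment) on genes over 1 CPM in at least 2 libraries, with Benjamini-Hochberg adjustment at 0.05. The limma fit was also run on simulated data in which each changed gene had the same fold in both lines. RRM2 and TYMS, among others, differ from that setting, so the simulation cannot vouch for the fit on such genes. Alternatives were a pseudocount of 0.1, a minimum of 5 CPM, TMM and median-of-ratios scaling, no filter, no line term and, for recovered fragments, limma-voom, edgeR 4.0.16 and DESeq2 1.42.0. The limma p-values rest mostly on the trend over all genes (12.7 degrees of freedom, against 1 from the residuals). They say little about how far a single gene differs between the 2 lines.

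The members, lists and tests were chosen with earlier results of these data known. Named genes were the 9 members, up to 4 genes per list with the largest absolute mean change among those that reached 5 CPM in both lines, and the 5 nearest genes to RRM2 and RRM2B. Some genes that this rule gives are not reported here. SHMT2, CMPK2, MDM2, GDF15, TK2, ADSL, ADSS1, ADSS2 and KRT8 fall outside this rule and were chosen after their values were seen.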

Additional observations from a re-analysis of the deposited data

Results flagged for a closer look

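Among the list genes named in the text, 7 stood on opposite sides of 1 in the lines, each with counting intervals away from 1. This count follows from the choice of named genes, some of them chosen after their values were seen. List genes not named here met the same condition, so 7 is not the full extent. The CPM ratio of TYMP, OICR-9429 over DMSO, was 0.477 (0.426 to 0.533) in DU145 and 3.99 (3.56 to 4.48) in PC-3. That of CTPS1 was 1.23 (1.15 to 1.30) in DU145 and 0.322 (0.301 to 0.344) in PC-3. ADSL had ratios of 1.26 (1.17 to 1.36) and 0.428 (0.287 to 0.628), and ADSS1 of 0.608 (0.540 to 0.684) and 1.47 (1.07 to 2.02). The keratin KRT19 had a ratio of 2.06 in DU145 and of 0.850 (0.830 to 0.871) in PC-3. SHMT2 had ratios of 0.898 (0.872 to 0.925) and 2.01 (1.94 to 2.07), and TK2 of 0.885 (0.808 to 0.970) and 1.52 (1.29 to 1.80). In DU145 SHMT2 moved to 1.02 and TK2 to 1.00 under TMM scaling, so neither stayed below 1 there, while the other 5 kept their side of 1 in both lines under TMM and median-of-ratios scaling. The differences between the lines were not tested, since each group has 1 library.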

How the results depend on the processing

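The counts of members lower and higher by 2-fold stayed within 1.5 times in both lines under a pseudocount of 0.1 CPM, a minimum of 5 CPM, TMM and median-of-ratios scaling. The lower members in DU145 went from 2 to 3 with a pseudocount of 0.1, where DHODH passed the rule (log2 change −1.05). Further pathway genes lower in DU145 went from 4 to 1 under both scalings, and 1 was higher, not 0, with a pseudocount of 0.1. The log2 change of the RRM2 to RRM2B ratio in PC-3 went from −5.31 to −5.60 with a pseudocount of 0.1, by the construction of that alternative. The number of members passing across both lines was 3 as reported, 2 (RRM2 and TK1) with edgeR, TMM scaling, median-of-ratios scaling and no filter, and 3 with DESeq2, limma-voom and a pseudocount of 0.1. It was 0 in the fit without the line term, that is with no replicate block of lines. No paired analysis by replicate number was possible because each group has 1 library and the labels carry no replicate numbers. Over all genes tested, 18 rose and 171 fell as reported, 11 and 101 under TMM scaling, 13 and 157 with edgeR, 59 and 242 with DESeq2, 32 and 231 with limma-voom, and 0 and 0 without the line term (230 at an unadjusted p under 0.05). Of 516 values under an alternative, 0 changed direction past the threshold, but this check was open only to changes already past 2-fold. Smaller values did change sign. In DU145 under TMM scaling, the median log2 change of the purine synthesis genes went from −0.076 to 0.101. That of the other pyrimidine genes went from −0.089 to 0.085. Leaving out a library would leave no residual degrees of freedom. Within a line depth is not the limit for the members (at least 107 fragments each), while the lack of replicates is.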

Other observations

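ADSL, the purine synthesis enzyme adenylosuccinate lyase, stood at 45.4 against 57.5 CPM in DU145 and at 3.28 against 1.40 CPM in PC-3 (DMSO, then OICR-9429), so the lines differed by more than the treatments did. ADSS1, an adenylosuccinate synthase, stood at 26.9 against 16.3 CPM in DU145 and at 2.42 against 3.56 CPM in PC-3, while ADSS2, its paralog, stood between 73.3 and 80.9 CPM in all 4 libraries. These genes were chosen after their values were seen.

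TK2, the mitochondrial thymidine kinase, did not share the direction of its cytosolic counterpart TK1 in PC-3. It stood at 36.1 against 32.0 CPM in DU145 and at 8.36 against 12.7 CPM in PC-3, a ratio of 1.52 (1.29 to 1.80) in PC-3. DGUOK, the mitochondrial deoxyguanosine kinase, had CPM ratios of 0.767 (0.700 to 0.840) in DU145 and 0.722 (0.643 to 0.811) in PC-3. GDF15, a stress-induced cytokine, stood at 3.26 against 3.34 CPM in DU145 and at 51.3 against 563 CPM in PC-3.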
